A study of Mus musculus with 4 samples.

Results

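The autophagy machinery was described in mouse gastric corpus RNA through 40 genes, taken from a list of names: initiation, nucleation, lipid transfer and conjugation factors, the ATG8 proteins and the cargo receptors. All 40 were found among the 52125 rows of the deposited gene table, and all 40 passed the filter on low values that left 18285 genes for testing. The treated mice received HDT, letters that commonly stand for high-dose tamoxifen but are not spelled out in the labels, as 1 intraperitoneal injection of 5 mg per 20 g of body weight. The mice they were set against are called vehicle in the sample titles and untreated in the protocol text. Both groups were C57BL/6 wild-type mice aged 6 to 8 weeks, sampled at 48 hr, with 2 libraries per group and 1 mouse per library. Whole tissue of the corpus, the part of the stomach with acid-secreting glands, was used, so each value averages over all its cell types.

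Autophagy wraps cytoplasm in a double membrane and delivers it to the lysosome. The ULK kinase complex starts the process, a class III phosphatidylinositol 3-kinase marks the forming membrane, ATG9 and ATG2 supply lipid, and a pair of ubiquitin-like conjugation reactions attaches ATG8 proteins (the LC3 and GABARAP proteins) to the membrane. Cargo receptors bind ATG8 proteins and bring in aggregates, mitochondria or other organelles. In the stomach corpus, autophagy and lysosomes are known to be engaged when enzyme-secreting chief cells dismantle their secretory machinery after injury.

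The libraries held 42175023 and 42674985 reads in HDT mice and 41536686 and 42104568 reads in vehicle mice, recovered from the deposited values. Markers of the corpus cell types were present, and the lists differed in how far they shifted with the group. Over all tested genes 19.3% were called lower and 18.4% higher. Of 12 parietal cell genes 9 were called lower in HDT and 1 higher, with summed levels of 3385 to 3806 CPM (reads scaled to a common library size with TMM factors) in HDT and 14547 to 15808 CPM in vehicle. Of 7 chief cell genes 5 were called lower, at 32107 to 45439 CPM in HDT and 155680 to 188976 CPM in vehicle. Of 8 pit cell genes 6 were called lower, at 65886 to 80760 CPM in HDT and 120489 to 123460 CPM in vehicle. Of 6 mucous neck cell genes 3 were called lower and 1 higher, at 678 to 713 CPM in HDT and 1693 to 1725 CPM in vehicle. All 7 genes of dividing cells, 9 of 12 macrophage genes and 6 of 7 fibroblast genes were called higher, and 1 macrophage gene was called lower. Summed levels in HDT and in vehicle were 525 to 618 against 172 to 196 CPM for dividing cells, 418 to 511 against 215 to 228 CPM for macrophages and 1894 to 2129 against 1020 to 1036 CPM for fibroblasts. The smooth muscle, squamous forestomach and B and plasma cell lists had no call. Of 8 endocrine cell genes 2 were called lower and 1 higher, and of 5 endothelium genes 2 were called lower. No gene of these lists was at 0 in every library. Pancreatic acinar genes summed to 9.62 and 11.5 CPM in HDT, 26.4 CPM in vehicle replicate 1 and 182 CPM in vehicle replicate 2, and values without vehicle replicate 2 are given beside the named genes whose call it changes. Whether a lower level in this bulk tissue means fewer cells of a type or less RNA per cell cannot be told apart, and the part of these marker shifts in the results below was not tested.

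At 48 hr after HDT, transcripts of the ATG8 proteins and of the mitochondrial receptor Bnip3 were lower. Most of the genes acting before them had no call, as was so for 11394 of all 18285 tested genes. Of the 40 genes, 16 were called lower and 2 higher, and 22 had no call (limma, Benjamini-Hochberg adjusted p below 0.05 over all tested genes). Over all tested genes 19.3% were called lower and 18.4% higher, 37.7% in either direction. The genes called higher, 5% of the 40, were thus fewer than in the background, and those called lower, 40%, were more. The same shares of all tested genes are the background for the counts by role below, each of 4 to 7 genes. The median log2 fold change was −0.20 for the 40 genes, with 33 below 0 and 7 above, beside −0.002 for all tested genes. Called changes of at least 2-fold were found for 3 of the 40 genes, 7.5%, beside 8.58% of all tested genes. The HDT and vehicle libraries did not overlap for 31 of the 40 genes, 26 of them lower in HDT. Over all tested genes they did not overlap for 12947, or 70.8%, of which 6490 were lower in HDT.

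**Figure D1:**
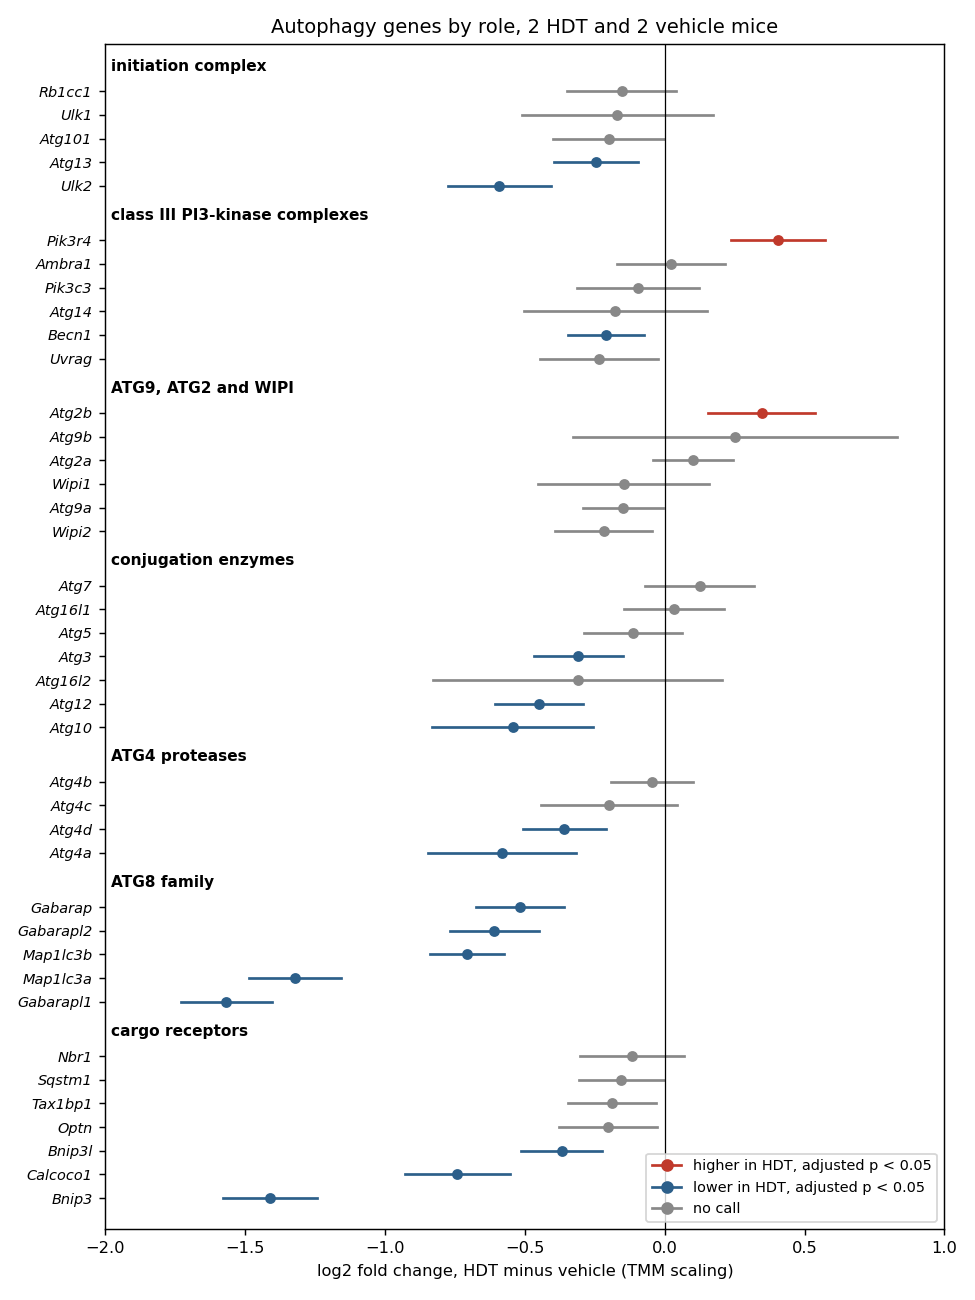
Log2 fold change of each of the 40 genes, HDT minus vehicle, grouped by role, with points for the estimate and bars for its 95% confidence interval from limma with TMM scaling (2 mice per group). The 5 ATG8 family genes lie between −1.57 and −0.52 and Bnip3 at −1.41, while only Pik3r4 and Atg2b were called higher; as deposited, without TMM, all values lie higher and Gabarap is at 0.02.

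These directions are relative to TMM scaling, which sets the median gene near no change. With the values as deposited, the all-gene median was 0.53 on the log2 scale, 62.8% of the genes were called higher and 5.46% lower. There 25 of the 40 autophagy genes were called higher and 4 lower, namely Gabarapl1, Bnip3, Map1lc3a and Map1lc3b, with log2 fold changes of −1.03, −0.88, −0.79 and −0.17. Among those called higher were Atg13, Becn1, Atg3 and Atg4d, whose calls with TMM were lower. Their log2 fold changes as deposited were 0.286, 0.324, 0.224 and 0.174 (limma adjusted p = 0.00434, 0.00149, 0.0275 and 0.0428). Fold changes below are from TMM scaling unless a sentence says otherwise, and ratios between genes within a library do not depend on it.

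**Figure D2:**
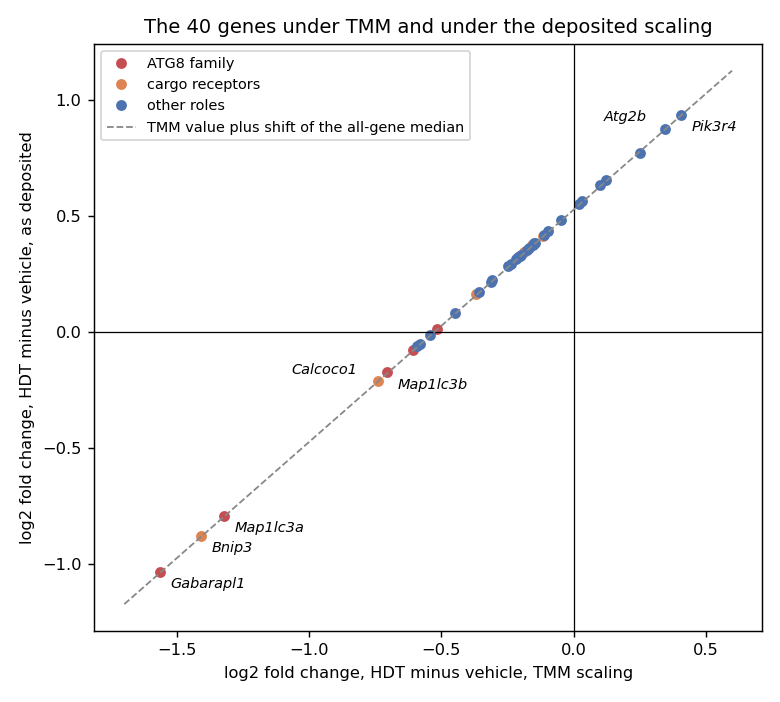
Log2 fold changes, HDT minus vehicle, of the 40 genes with TMM scaling (horizontal axis) and with the values as deposited (vertical axis); the dashed line adds the shift of the all-gene median. The points lie along that line, and only genes below about −0.5 with TMM, led by Gabarapl1, Bnip3 and Map1lc3a, stay below 0 as deposited.

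All 5 ATG8 family genes fell with TMM scaling, whereas as deposited only Gabarapl1, Map1lc3a and Map1lc3b were called lower and Gabarap was at 0.02 (limma adjusted p = 0.84). ATG8 proteins are the ubiquitin-like tags on the autophagosome membrane: the GABARAP branch is known mainly for late steps and fusion with lysosomes, the LC3 branch for membrane growth and cargo capture. Gabarapl1 was at 47.4 and 43.2 CPM in HDT mice and at 130 and 138 CPM in vehicle mice. The mean HDT level was 0.338 of the vehicle level (log2 fold change −1.57, SE 0.0705, limma adjusted p = 4.93e-06), the largest fall among the 40 genes. Map1lc3a, which encodes LC3A, was at 21.7 and 22.7 CPM in HDT and at 57.9 and 53.4 CPM in vehicle, a log2 fold change of −1.32 (SE 0.0713, limma adjusted p = 1.03e-05). Both genes kept their calls in all 14 analyses with another scaling, filter, pseudocount, test or library left out, or with a replicate block.

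The other ATG8 genes fell less. Map1lc3b, which encodes LC3B, the form most used to follow autophagosomes, was at 80.4 and 80.1 CPM in HDT and at 131 and 130 CPM in vehicle (log2 fold change −0.71, SE 0.0575, limma adjusted p = 7.18e-05). Gabarapl2, also known as GATE-16, was at 33.2 and 31.6 CPM in HDT and at 51.0 and 47.8 CPM in vehicle (log2 fold change −0.61, limma adjusted p = 0.000343). Gabarap, the founding member of its branch, was at 237 and 259 CPM in HDT and at 348 and 361 CPM in vehicle (log2 fold change −0.52, limma adjusted p = 0.000741). No HDT library reached the level of a vehicle library for any gene of the family at TMM scaling. Groups without overlap, in either direction, were found for 70.8% of all tested genes. Summed over the family, the level was 420 and 436 CPM in HDT and 719 and 731 CPM in vehicle.

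**Figure D3:**
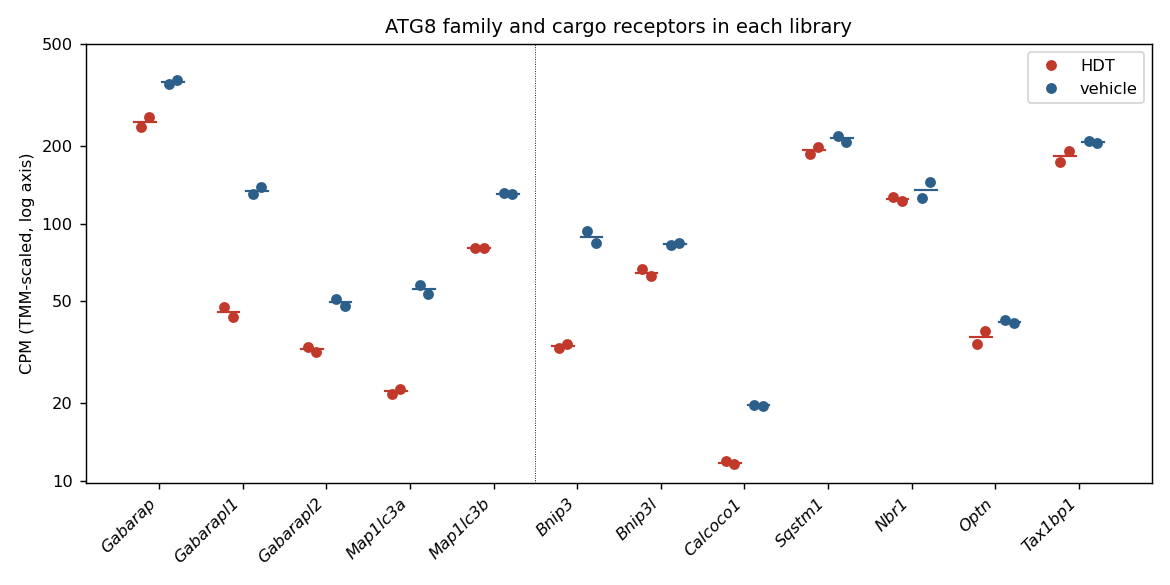
CPM of the 5 ATG8 family genes (left of the dotted line) and the 7 cargo receptors in each library, on a log axis with TMM-scaled library sizes; points are mice, HDT left of vehicle, and short lines are means of 2. Gabarapl1, Map1lc3a and Bnip3 show the widest gaps between groups, while the Nbr1 libraries overlap; as deposited, Gabarap is not lower in HDT.

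The make-up of the family therefore differed between the groups, as measured within each library. Per kilobase of exon, Gabarap made up 65.8 and 68.4% of the summed ATG8 level in HDT and 55.2 and 56.3% in vehicle. Gabarapl1 made up 12.1 and 10.5% in HDT and 18.9 and 19.8% in vehicle, and Map1lc3a 9.41 and 9.37% in HDT and 14.3 and 13.0% in vehicle. Shares of Gabarapl2, 7.31 and 6.62% in HDT against 6.42 and 5.92% in vehicle, and of Map1lc3b, 5.47 and 5.19% in HDT against 5.11 and 4.99% in vehicle, were close. The shares depend on exon length, the union of all annotated exons, which is 7.517 kb for Map1lc3b and 1.181 to 2.325 kb for the others. Without division by length, Map1lc3b had mean levels of 80.2 CPM in HDT and 131 CPM in vehicle, beside 45.3 and 134 CPM for Gabarapl1. The groups did not overlap for any of these 5 shares, and with 2 mice per group the two-sided exact permutation test cannot go below p = 0.333, which each share gave. The log2 ratio per kilobase of Gabarapl1 over Gabarap was −2.45 and −2.71 in HDT and −1.54 and −1.51 in vehicle, and that of Map1lc3a over Map1lc3b was 0.78 and 0.85 in HDT and 1.49 and 1.38 in vehicle (exact permutation p = 0.333 for each).

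**Figure D4:**
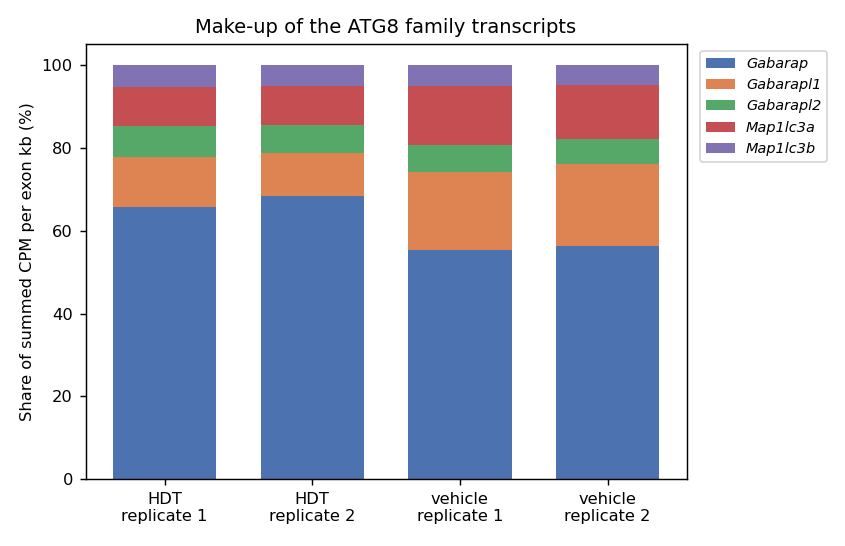
Share of each ATG8 family gene in the family's summed CPM per exon kilobase, in percent, for the 4 libraries with HDT left of vehicle. Gabarapl1 and Map1lc3a take smaller shares in both HDT libraries (10.5 to 12.1% and 9.37 to 9.41%) than in both vehicle libraries (18.9 to 19.8% and 13.0 to 14.3%).

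Compared per kilobase of exon, Gabarap was the most abundant of the 40 transcripts in each group, at 134 CPM per kilobase in HDT and 192 in vehicle. Gabarapl1, at 22.5 CPM per kilobase in HDT and 66.7 in vehicle, and Sqstm1, at 57.4 in HDT and 63.9 in vehicle, exchanged places in the order. Bnip3 took the ninth place in HDT, at 14.8 CPM per kilobase, and the fifth in vehicle, at 39.3. The vesicle protein gene Atg9b was the lowest in each group, at 0.264 CPM per kilobase in HDT and 0.222 in vehicle. Places in this order depend on the union exon length, which can exceed the length of the transcripts present.

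Among the cargo receptors, 3 of 7 fell, beside 19.3% of all tested genes, with a median log2 fold change of −0.20 over the 7. Bnip3, an outer-membrane receptor that links mitochondria to ATG8 proteins, was at 32.9 and 33.9 CPM in HDT and at 93.9 and 84.1 CPM in vehicle. Its log2 fold change was −1.41 (SE 0.0726, limma adjusted p = 8.43e-06), and it kept its call in the same 14 analyses. Its relative Bnip3l, also called NIX and known for clearing mitochondria from maturing red cells, was at 66.4 and 62.5 CPM in HDT and at 82.3 and 84.1 CPM in vehicle (log2 fold change −0.37, limma adjusted p = 0.00261), and it was at 0.16 as deposited. All 5 erythrocyte markers were also called lower, at 12.1 to 18.5 CPM summed in HDT and 58.2 to 65.7 CPM in vehicle, and their part in the Bnip3l value was not tested. The log2 ratio per kilobase of Bnip3 over Bnip3l was −0.24 and −0.11 in HDT and 0.96 and 0.77 in vehicle (exact permutation p = 0.333, the smallest possible), so Bnip3 was the more abundant of the pair in vehicle and the less abundant in HDT.

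Calcoco1, which takes part in the turnover of the endoplasmic reticulum and Golgi, was at 11.9 and 11.6 CPM in HDT and at 19.7 and 19.5 CPM in vehicle (log2 fold change −0.74, limma adjusted p = 0.000289), and as deposited it was at −0.21 without a call (limma adjusted p = 0.0648). The 4 receptors of ubiquitin-tagged cargo had no call. Sqstm1, or p62, the receptor that collects ubiquitinated aggregates, was at 186 and 199 CPM in HDT and at 220 and 209 CPM in vehicle (log2 fold change −0.16, 95% confidence interval −0.31 to −0.003, limma adjusted p = 0.102). Nbr1, which acts beside it, was at 127 and 122 CPM in HDT and at 125 and 145 CPM in vehicle, with overlapping groups (log2 fold change −0.12). Optn, a receptor for damaged mitochondria and bacteria, was at 34.1 and 38.2 CPM in HDT and at 42.2 and 40.9 CPM in vehicle (log2 fold change −0.20), and Tax1bp1 was at 174 and 192 CPM in HDT and at 210 and 207 CPM in vehicle (log2 fold change −0.19). Without HDT replicate 2 both were called lower, Optn at limma adjusted p = 0.0377 and Tax1bp1 at limma adjusted p = 0.0207.

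In the initiation complex, 2 of 5 genes fell, beside 19.3% of all tested genes. Ulk2, a kinase that can stand in for Ulk1, was at 17.1 and 16.0 CPM in HDT and at 24.1 and 25.8 CPM in vehicle (log2 fold change −0.59, SE 0.0801, limma adjusted p = 0.000844). Atg13, the adaptor of the kinase, fell by 0.25 on the log2 scale (limma adjusted p = 0.0188), a call lost without HDT replicate 2 (limma adjusted p = 0.079) and without vehicle replicate 2 (0.113). Ulk1, the main kinase, was at 68.9 and 53.1 CPM in HDT and at 63.5 and 72.9 CPM in vehicle, with the highest and the lowest HDT mouse on either side of vehicle replicate 1. Its log2 fold change was −0.17 (limma adjusted p = 0.384), and without HDT replicate 1 it was −0.35 and called (limma adjusted p = 0.0252). The scaffold Rb1cc1, or FIP200, and the stabilizing subunit Atg101 had log2 fold changes of −0.15 and −0.20 and no call.

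The class III phosphatidylinositol 3-kinase genes moved both ways. Pik3r4, which encodes the VPS15 regulatory subunit, was at 33.5 and 33.1 CPM in HDT and at 24.1 and 26.2 CPM in vehicle, a log2 fold change of 0.41 (SE 0.0726, limma adjusted p = 0.00337) whose call was kept in those 14 analyses. Its catalytic partner Pik3c3, or VPS34, was at −0.10 with overlapping groups, and the log2 ratio per kilobase of Pik3r4 over Pik3c3 was −1.49 and −1.29 in HDT and −1.87 and −1.91 in vehicle (exact permutation p = 0.333). Becn1, the Beclin 1 scaffold, fell by 0.21 on the log2 scale (limma adjusted p = 0.0248). Its call was lost when any 1 of the 4 libraries was left out, at limma adjusted p = 0.0511 without HDT replicate 1, 0.064 without HDT replicate 2, 0.17 without vehicle replicate 1 and 0.0987 without vehicle replicate 2, and DESeq2 on recovered reads did not call it (adjusted p = 0.0503). Atg14 and Uvrag, which direct the kinase to autophagosomes and to endosomes, and the Beclin 1 regulator Ambra1 had log2 fold changes of −0.18, −0.24 and 0.02 without a call.

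Of the 6 genes for lipid supply and recognition of the growing membrane, 1 rose and none was called lower at an adjusted p below 0.05, while Atg9a and Wipi2 were lower at an unadjusted limma p of 0.0431 and 0.0201. The lipid transfer protein gene Atg2b was at 26.0 and 24.3 CPM in HDT and at 18.8 and 20.8 CPM in vehicle, a log2 fold change of 0.35 (SE 0.0828, limma adjusted p = 0.0128). That call was lost without HDT replicate 1 (limma adjusted p = 0.0571) and without vehicle replicate 1 (0.0783). Its paralog Atg2a had a log2 fold change of 0.10, and the scramblase genes Atg9a and Atg9b had −0.15 and 0.25. Wipi2, which reads the lipid mark and recruits the conjugation machinery, was at −0.22 (limma adjusted p = 0.0527), and edgeR's quasi-likelihood test on recovered reads called it at adjusted p = 0.0499. It was also called without HDT replicate 1 (limma adjusted p = 0.0477) and without vehicle replicate 1 (0.0482). Wipi1, at −0.15, was called lower without vehicle replicate 1 (limma adjusted p = 0.0408).

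Among 7 conjugation genes, 3 fell, beside 19.3% of all tested genes. Atg12, the ubiquitin-like protein joined to ATG5, was at 46.1 and 50.1 CPM in HDT and at 64.1 and 67.1 CPM in vehicle (log2 fold change −0.45, SE 0.0684, limma adjusted p = 0.00152). Atg10, the enzyme that makes that joint, was at 4.57 and 4.40 CPM in HDT and at 6.28 and 6.82 CPM in vehicle (log2 fold change −0.54, limma adjusted p = 0.0107), and its call was lost without vehicle replicate 2 (limma adjusted p = 0.0568). Atg3, the enzyme that hands ATG8 proteins to lipid, fell by 0.31 on the log2 scale (limma adjusted p = 0.00975), which was not called without vehicle replicate 1 (0.0735). Atg5, the activating enzyme Atg7, and Atg16l1 and Atg16l2, which place the machinery on the membrane, ranged from −0.31 to 0.12 without a call. The log2 ratio per kilobase of the summed ATG8 family over the summed conjugation genes was 2.16 and 2.15 in HDT and 2.7 and 2.72 in vehicle (exact permutation p = 0.333), so ATG8 transcripts were lower in HDT also relative to the enzymes that attach them.

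Of the 4 ATG4 proteases, which trim ATG8 proteins before lipid attachment and release them afterwards, 2 fell, beside 19.3% of all tested genes. Atg4a, which prefers the GABARAP branch, was at 5.54 and 6.20 CPM in HDT and at 8.83 and 8.74 CPM in vehicle (log2 fold change −0.58, SE 0.115, limma adjusted p = 0.00536). Atg4d fell by 0.36 on the log2 scale (limma adjusted p = 0.00337), but as deposited it was called higher at 0.174 (limma adjusted p = 0.0428). Atg4b, the protease with the broadest range, was at −0.05 and Atg4c at −0.20, without a call.

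Several of these genes share exon bases with a neighbour in GENCODE M21 (GRCm38), and because the strand setting of the counting is not given in the sources used here, their reads cannot be told apart there. Gm45507, annotated antisense to Bnip3, covers 22.3% of its exon bases and had 1029 and 1090 reads in HDT and 2042 and 1797 reads in vehicle. Bnip3 itself had 1693 and 1713 reads in HDT and 3305 and 2896 reads in vehicle. Whether the same fragments were counted for both genes was not tested, and reads in this paragraph are not TMM-scaled. The transcript 1700101I11Rik covers 28.3% of the exon bases of Gabarapl1 from the other strand and had 403 and 325 reads in HDT and 623 and 658 reads in vehicle. Cntd1 covers 43.9% of Becn1, Gm29253 31.8% of Atg9a, Kri1 19.3% of Atg4d, Gm45187 17.6% of Uvrag and Mrnip 17.3% of Sqstm1. Map1lc3a, Pik3r4, Ulk2, Calcoco1 and Atg12 have no such neighbour.

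The sequence before the start site is shown for the 2 genes with the largest rise and the 2 with the largest fall, from RefSeq on GRCm38.p6, as 250 bases read 5′ to 3′ on the strand of the gene. The start of Atg2b is that of RefSeq, and the bases after it were not found in a GENCODE M21 transcript. Capitals mark ACGTG on either strand, the core of the site bound by hypoxia-inducible factors, of which Bnip3 is a known target.
Pik3r4, chr9:105642745-105642994, plus strand: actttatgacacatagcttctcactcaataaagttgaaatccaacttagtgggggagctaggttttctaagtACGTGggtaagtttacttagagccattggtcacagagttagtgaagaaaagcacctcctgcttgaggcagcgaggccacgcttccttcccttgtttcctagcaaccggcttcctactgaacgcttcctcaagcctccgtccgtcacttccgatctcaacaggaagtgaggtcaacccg
Atg2b, chr12:105685242-105685491, minus strand: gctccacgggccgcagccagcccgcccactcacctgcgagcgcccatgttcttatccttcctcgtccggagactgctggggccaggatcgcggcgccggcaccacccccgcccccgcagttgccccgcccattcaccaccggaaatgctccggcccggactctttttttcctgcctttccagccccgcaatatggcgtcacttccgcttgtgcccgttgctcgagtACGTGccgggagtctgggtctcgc
Gabarapl1, chr6:129532942-129533191, plus strand: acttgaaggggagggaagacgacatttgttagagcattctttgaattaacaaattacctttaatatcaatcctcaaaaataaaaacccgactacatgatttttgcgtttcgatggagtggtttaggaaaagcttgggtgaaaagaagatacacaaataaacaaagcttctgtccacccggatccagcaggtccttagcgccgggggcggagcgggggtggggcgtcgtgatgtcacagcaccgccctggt
Bnip3, chr7:138909507-138909756, minus strand: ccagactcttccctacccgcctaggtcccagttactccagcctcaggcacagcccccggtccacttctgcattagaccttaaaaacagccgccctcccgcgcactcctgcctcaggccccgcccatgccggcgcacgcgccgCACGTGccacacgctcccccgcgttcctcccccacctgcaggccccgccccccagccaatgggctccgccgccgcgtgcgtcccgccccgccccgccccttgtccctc

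ACGTG lay 108 bases before the start of Bnip3, where both strands match and together form the E-box CACGTG, 178 bases before the start of Pik3r4 and 24 before that of Atg2b, and the window of Gabarapl1 had none. It was thus found before a gene that fell and before both genes that rose. Of the 33 members with an entry, 14 held ACGTG in these 250 bases, 42.4%, beside 18.5% of the 27025 genes in the table and 23.8% of the 12110 of them that were tested here. By call, the 14 were both of the 2 genes that rose, 5 of 12 that fell and 7 of 19 without a call. The E-box CACGTG, the core that TFEB, TFE3 and MITF bind at lysosome and autophagy genes, was present before 4 members, Atg3, Atg5, Atg7 and Bnip3, 12.1% of the 33, beside 9.35% of the tested genes and 6.86% of all genes, and every CACGTG also holds ACGTG. The longer TCACGTG was present before Atg3 and Atg7, 6.06% of the members, beside 5.36% of the tested genes and 3.58% of all genes. The antioxidant element core TGACNNNGC was present before 3 members, Atg13, Tax1bp1 and Ulk2, 9.09%, beside 14% of the tested genes and 11.5% of all genes. A match is a description of these letters and not a measured binding site.

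Other genes of the pathway, listed by role apart from the 40, were called in both directions. Of 80 that were tested, 29 were called lower and 11 higher, 36.2% and 13.8%, with a median log2 fold change of −0.15. Over all tested genes the shares were 19.3% and 18.4% and the median was −0.002, the background for the counts by list below. Without vehicle replicate 2 the counts were 18 and 8, and 14 calls were lost, those of Mtor, Mlst8, Sesn1, Foxo4, Wdr45b, Sh3glb1, Snap29, Vps33a, Vps41, Rab7, Lamp1, Phb2, Fkbp8 and Tbk1. As deposited the counts were 2, Mitf and Pink1, and 61, and there Sec62, Sh3glb1 and Wdr45b were among those called higher.

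**Figure D5:**
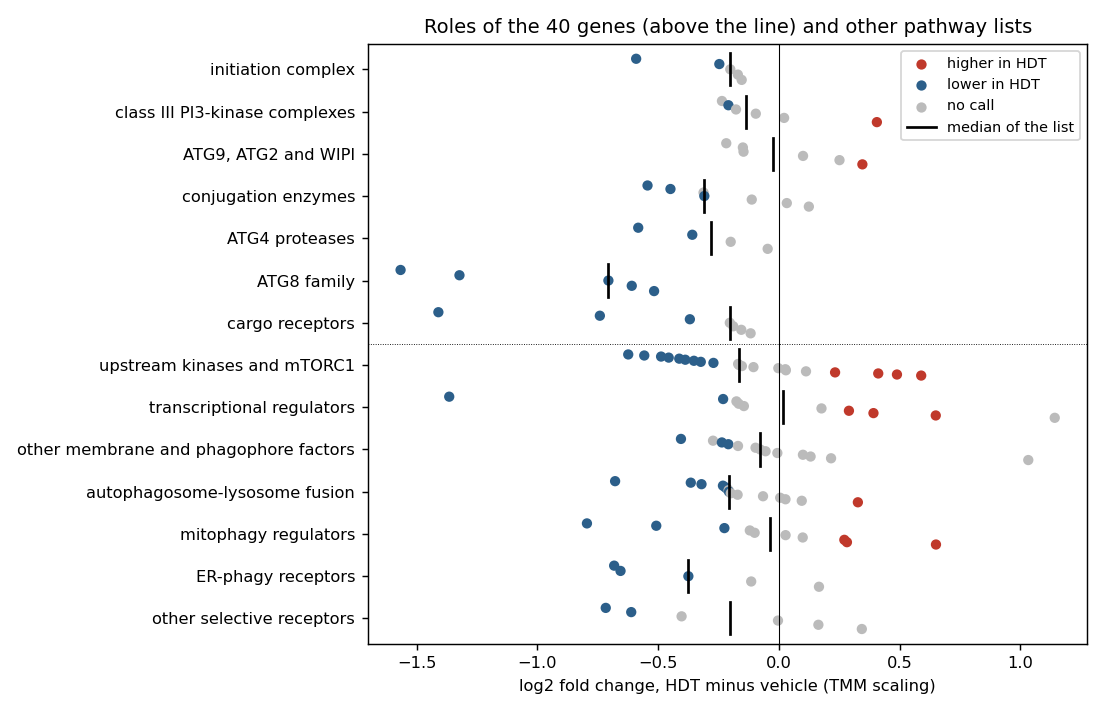
Log2 fold changes, HDT minus vehicle with TMM scaling, of the 40 genes by role (above the dotted line) and of other pathway genes by list (below it); each point is a gene, coloured by its call, and the black bar is the list's median. The ATG8 family has the lowest median of the 14 lists, −0.71; as deposited all points lie higher by about the shift of the all-gene median.

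Among 21 upstream kinase and mTORC1 genes, 9 fell and 4 rose. Prkaa2, a catalytic subunit of the energy sensor AMPK, was at 17.6 and 15.6 CPM in HDT and at 25 and 26.0 CPM in vehicle (log2 fold change −0.62, limma adjusted p = 0.000918). The other AMPK subunit genes went both ways. Prkab1 rose by 0.49 (limma adjusted p = 0.00046), Prkab2 and Prkag2 fell by 0.49 and 0.46 (0.00543 and 0.00129). The other catalytic subunit gene, Prkaa1, at 0.11, and Prkag1, at −0.10, had no call. Sesn2, a stress-induced brake on mTORC1, rose by 0.59 on the log2 scale (limma adjusted p = 0.00766), and Ddit4, another such brake, fell by 0.56 (limma adjusted p = 0.0109). The transcriptional regulators were split, with 3 higher and 2 lower of 10. Mitf, a relative of TFEB that drives lysosome genes, was at 6.47 and 5.01 CPM in HDT and at 13.4 and 16.2 CPM in vehicle (log2 fold change −1.37, limma adjusted p = 0.000384). Zkscan3, a repressor of autophagy genes in human cells, rose by 0.65 (limma adjusted p = 0.000402), and Nfe2l2, the oxidative stress factor NRF2, rose by 0.39 (limma adjusted p = 0.00245), a call lost without vehicle replicate 1 (0.0646). Tfeb and Tfe3, named after their values were seen, differed in call: Tfeb was at 11.6 and 12.1 CPM in HDT and at 13.7 and 12.5 CPM in vehicle without a call, and Tfe3 rose by 0.29 (limma adjusted p = 0.0084), which was not called without vehicle replicate 1 (0.0516).

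Of 15 genes for fusion with the lysosome, 7 fell and 1 rose. The SNARE genes differed: Ykt6 fell by 0.68 on the log2 scale (limma adjusted p = 9.6e-05), Vamp8 by 0.36 (0.00587) and Snap29 by 0.32 (0.00849). Stx17, a SNARE found on the autophagosome, was at 47.8 and 51.3 CPM in HDT and at 39.5 and 39.5 CPM in vehicle (log2 fold change 0.33, limma adjusted p = 0.0059). Of 13 other membrane factors 3 fell and none was called higher, led by the scramblase Vmp1 at −0.41 (limma adjusted p = 0.00136), with Sh3glb1 at −0.24 and Wdr45b at −0.21. The call of Sh3glb1 was lost without vehicle replicate 1 (limma adjusted p = 0.0988) and without vehicle replicate 2 (0.129). That of Wdr45b was lost when any 1 of the 4 libraries was left out (limma adjusted p = 0.0566 to 0.151).

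Genes of selective autophagy of mitochondria were called in both directions. Pink1, the kinase that marks damaged mitochondria, was at 42.7 and 45.1 CPM in HDT and at 73.5 and 78.8 CPM in vehicle (log2 fold change −0.79, limma adjusted p = 8.62e-05). The mitochondrial receptor Fundc1 fell by 0.51 (limma adjusted p = 0.00243) and the mitochondrial tag Nipsnap1 rose by 0.65 (limma adjusted p = 0.0031), among 3 lower and 3 higher of 10 tested. Of 5 tested receptors for endoplasmic reticulum 3 fell, Ccpg1 by 0.68, Tex264 by 0.66 and Sec62 by 0.37 on the log2 scale (largest limma adjusted p = 0.0019). Of 6 other receptors tested 2 fell, the ferritin receptor Ncoa4 by 0.72 (limma adjusted p = 0.000241) and Tollip by 0.61 (limma adjusted p = 0.000202).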

How the data were processed

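The table the authors deposited holds a signal, normalized gene counts: each value is a whole number of reads times a factor constant within a library. The submitters' processing notes name edgeR, featureCounts from Subread 2.0.0, the aligner STAR 2.7.1a and the builds GRCm38 and mm10. The annotation, strand setting and normalization method were not given in the sources used here. Dividing by the worth of 1 read (1.1192 and 1.1128 in HDT, 1.1381 and 1.12 in vehicle) gave whole reads for 100% of values within 0.01.

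Genes were kept by edgeR's filterByExpr (edgeR 4.0.16). Deposited values were divided by column totals times TMM factors (1.22 and 1.183 in HDT, 0.8475 and 0.818 in vehicle), transformed as log2(value + 1), and HDT was compared with vehicle in limma 3.58.1 with trend and robust moderation, two-sided, Benjamini-Hochberg adjusted over 18285 genes, threshold 0.05. Fold changes on this scale understate changes of low genes. The fit was tested on simulated data with changes in both directions, which does not test the choice of scaling. Calls rest on the spread between 2 mice per group, moderated with a median of 5.86 prior degrees of freedom. CPM comes from recovered reads and TMM-scaled library sizes; exon length is the union of GENCODE M21 exons. edgeR's quasi-likelihood test (6868 genes called, 6891 with limma) and DESeq2 1.42.0 on recovered reads were alternatives, with other scalings, filters, pseudocounts, a replicate block and each library left out.

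The genes and lists were chosen with earlier results of these data known. Library values were given for called genes with an absolute log2 fold change of at least 0.4, the most changed gene of each role, the ATG8 genes and the receptors. From each other list the 3 most changed called genes were named, with library values for some of them. Further genes of these lists were named after their values were seen. Of the listed pathway genes, 5 symbols were not matched in the table and Calcoco2 was under the filter.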

Additional observations from a re-analysis of the deposited data

How the results depend on the processing

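Scaling moved most values. As deposited, 25 genes of the 40 were called higher and 4 lower, 12481 of all genes and 63 of the other pathway genes were called, and 11483 calls, 92%, were higher, against 48.9% with TMM. Directions turned for 24 of the 40, with log2 fold changes as deposited of 0.363 for Ulk1, 0.378 for Rb1cc1, 0.286 for Atg13, 0.331 for Atg101, 0.324 for Becn1, 0.437 for Pik3c3, 0.354 for Atg14, 0.296 for Uvrag, 0.383 for Atg9a, 0.386 for Wipi1, 0.315 for Wipi2, 0.224 for Atg3, 0.42 for Atg5, 0.084 for Atg12, 0.217 for Atg16l2, 0.486 for Atg4b, 0.332 for Atg4c, 0.174 for Atg4d, 0.016 for Gabarap, 0.377 for Sqstm1, 0.416 for Nbr1, 0.329 for Optn, 0.344 for Tax1bp1 and 0.164 for Bnip3l. The alternative's own construction, without TMM factors, adds nearly the same shift to every gene. With 1 library left out, where the lone library of a group is assumed to vary like the other group, the count of higher genes was 1 to 2, of lower genes 13 to 17, of other pathway genes called 26 to 34 and of all genes 5316 to 5777, and log2 fold changes crossed 0 for Ulk1 (−0.351 to 0.034), Pik3c3 (−0.201 to 0.033), Atg14 (−0.371 to 0.039), Ambra1 (−0.086 to 0.12) and Wipi1 (−0.319 to 0.017). The replicate block gave 1 higher and 14 lower genes and 26 other pathway genes, without calls for Becn1, Atg13 and Atg2b. The labels do not say whether replicate numbers pair these separate mice. Same-numbered libraries' deviations correlated at −0.142, which cannot decide it, because the deviations of 2 libraries per group mirror each other. The crossed pairing, added after seeing the data, gave 2 higher and 24 lower. DESeq2 size factors, upper-quartile scaling, both pseudocounts and no filter changed none of the calls on the 40 genes. Depth limits Atg9b, with 27 to 54 reads per library. The cause of the differences apart from scaling was not tested.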
